A study of Mus musculus with 29 samples.

Results

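Mitochondrial biogenesis is directed by a small set of nuclear genes, and 10 of them were followed here through the differentiation of 3T3-L1 cells, an established mouse fibroblast line that can be turned into white fat cells in culture. The genes were listed by symbol and looked up through their Ensembl IDs: the PGC-1 family coactivators Ppargc1a, Ppargc1b and Pprc1, the DNA-binding factors Nrf1, Gabpa and Esrra, and the mitochondrial transcription genes Tfam, Tfb1m, Tfb2m and Polrmt. All 10 are among the 11959 genes of the count table, from which the authors had filtered low values. Only genes present in it could be members, so this says nothing about regulators lost to the filter. Confluent preadipocytes were given DMSO (vehicle) or 10 µM KDM5-C70 (C70), an inhibitor of the KDM5 histone H3K4 demethylases, from day −2 until day 0. Differentiation was then induced in both arms with a cocktail of insulin, dexamethasone, isobutylmethylxanthine and a PPARγ agonist, replaced after day 2 by adipocyte medium. RNA was collected at days 0, 1, 2 and 7, so that the cells sampled after day 0 were no longer being dosed. Vehicle groups had 3 samples at days 0, 1 and 2 and 4 samples at day 7, C70 groups had 4 samples on every day, and the 29 samples formed 8 groups. All came from 1 cell line, and nothing in the labels says whether replicates were separate cultures, so the P values measure the spread between these samples, which may be technical.

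PGC-1α (Ppargc1a), PGC-1β (Ppargc1b) and the PGC-1-related coactivator (Pprc1) do not bind DNA themselves but dock on transcription factors and raise their output. Their partners include nuclear respiratory factor 1 (Nrf1), the ETS factor GABPα (Gabpa, also called NRF-2) and the orphan receptor ERRα (Esrra), which act on nuclear genes for respiratory chain subunits, fatty acid oxidation and the mitochondrial transcription machinery. That machinery consists of the mitochondrial RNA polymerase (Polrmt), the DNA-packaging and initiation factor TFAM (Tfam) and TFB2M (Tfb2m), which opens the promoter, while TFB1M (Tfb1m) now serves mainly as a methyltransferase of mitochondrial ribosomal RNA. White adipocytes gain mitochondria as they differentiate, and PGC-1α is best known in adipose tissue for its part in thermogenic fat.

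The promoters of 5 members are shown because they show the matches and the absence of one. Tfb2m, Polrmt and Esrra are the members with an NRF1 core among those searched, which left out Ppargc1b. Tfam is the classical target of NRF1 and GABP, and Ppargc1a had the largest C70 difference. Each window runs 250 bases before to 50 bases after the RefSeq start site on GRCm38.p6, is printed 5′ to 3′ on the gene's strand, and has in capitals any match to the 8-letter NRF1 core GCGCATGC or the 7-letter GABP core CCGGAAG on either strand. The Tfam window (chr10:71237995-71238294, minus strand) holds a GABP core at −47 to −41 from the start site. The Tfb2m window (chr1:179546227-179546526, minus strand) holds an NRF1 core at 14 to 21, and the Esrra window (chr19:6921759-6922058, minus strand) holds one at −34 to −27. The Polrmt window (chr10:79746532-79746831, minus strand) holds both, at −133 to −126 and −43 to −37. The Ppargc1a window (chr5:51567676-51567975, minus strand) holds neither.
Tfam: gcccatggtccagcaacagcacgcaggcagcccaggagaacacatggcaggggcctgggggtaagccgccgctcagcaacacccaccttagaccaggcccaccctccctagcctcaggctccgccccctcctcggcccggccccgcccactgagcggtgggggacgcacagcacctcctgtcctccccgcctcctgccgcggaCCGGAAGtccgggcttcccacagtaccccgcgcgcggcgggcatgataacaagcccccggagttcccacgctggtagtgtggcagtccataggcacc
Tfb2m: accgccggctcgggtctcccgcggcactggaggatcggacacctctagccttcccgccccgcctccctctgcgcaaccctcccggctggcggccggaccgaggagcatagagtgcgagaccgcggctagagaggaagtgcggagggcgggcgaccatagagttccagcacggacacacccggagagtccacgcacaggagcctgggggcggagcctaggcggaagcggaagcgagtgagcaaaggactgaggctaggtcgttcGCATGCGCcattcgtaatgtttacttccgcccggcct
Polrmt: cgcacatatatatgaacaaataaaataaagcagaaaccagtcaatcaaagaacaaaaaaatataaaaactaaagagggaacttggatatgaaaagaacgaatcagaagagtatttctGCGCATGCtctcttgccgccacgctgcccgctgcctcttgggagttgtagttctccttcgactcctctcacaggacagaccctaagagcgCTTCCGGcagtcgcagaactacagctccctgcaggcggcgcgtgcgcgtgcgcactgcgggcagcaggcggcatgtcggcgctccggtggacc
Esrra: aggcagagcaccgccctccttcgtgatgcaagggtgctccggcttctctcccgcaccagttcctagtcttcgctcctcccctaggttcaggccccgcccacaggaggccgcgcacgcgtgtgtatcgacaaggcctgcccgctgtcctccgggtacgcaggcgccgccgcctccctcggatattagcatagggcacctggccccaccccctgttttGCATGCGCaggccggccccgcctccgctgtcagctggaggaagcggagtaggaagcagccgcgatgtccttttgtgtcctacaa
Ppargc1a: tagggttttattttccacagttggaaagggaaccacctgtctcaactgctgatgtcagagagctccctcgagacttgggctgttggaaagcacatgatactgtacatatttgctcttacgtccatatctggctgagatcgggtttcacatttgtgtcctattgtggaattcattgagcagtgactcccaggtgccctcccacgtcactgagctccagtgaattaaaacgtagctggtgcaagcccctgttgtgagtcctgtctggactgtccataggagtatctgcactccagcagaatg

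RefSeq windows were searched for 9 members. Ppargc1b was left out of the search, so its promoter was not examined. A GABP core also lay in the Gabpa window, at −93 to −87, while the windows of Pprc1, Nrf1 (2 alternative starts) and Tfb1m had no match to either core. Of 32851 promoter windows of the same length in the mouse genome, 2.71% held the NRF1 core and 8.86% the GABP core. The ERR core AAGGTCA, the cAMP response element TGACGTCA and the E-box CACGTG were in none of the searched windows. Of all windows 4.72%, 1.79% and 7.15% held them. CpG dinucleotides numbered 43 in the first Nrf1 window and 2 in the second, 32 in Tfb2m, 25 in Esrra, 22 in Gabpa, 21 in Tfam and in Polrmt, 16 in Tfb1m, 14 in Pprc1 and 5 in Ppargc1a, against a median of 7 and an upper quartile of 20 over all windows. A match is a stretch of letters and no binding was measured.

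Library totals lay between 16320275 and 24037170 counted reads, and a member's raw count was between 54 (Tfb1m, day 0 C70) and 2965 (Pprc1, day 0 C70) in any sample. Replicates differed by more than counting noise, with a chi-square per degree of freedom of 2.65 to 46.7 (median 5.09 over 39 pairs). The day 7 vehicle replicate 1 stood apart from the other 3 of its group (46.7, 45.9 and 39.8, against 2.65 to 10.7 among the others), so the day 7 fold changes with C70 of the members, and the day 7 calls and overlaps that change without it, are given also without it. The labels call all samples adipocytes. The adipokine gene Adipoq, however, averaged 0.283 ± 0.11 CPM (counts scaled to a common library size with TMM factors, mean ± SD, n = 3) in day 0 vehicle cells and 1339.7 ± 189 (n = 4) at day 7, and the preadipocyte gene Dlk1 2572 and 202 CPM. Adipoq was thus low but detected at day 0, when another adipocyte marker, Fabp4, averaged 50.6 CPM.

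In vehicle-treated cells most of the regulators changed as differentiation proceeded, and they did not change as a block. Ppargc1b, which encodes PGC-1β, was raised most, from 4.95 ± 0.18 CPM at day 0 to 48.8 ± 2.4 at day 2 (9.86-fold). Esrra, Tfb1m, Polrmt and Tfb2m rose by day 1 and stayed up, Tfam rose only from day 2, and Pprc1 and Nrf1 declined. Ppargc1a was close to its day 0 level at day 1, rose at day 2 and had fallen to 7.30 ± 1.3 CPM by day 7. A member was called a differentially expressed gene (DEG) when edgeR's quasi-likelihood test with Benjamini-Hochberg adjustment gave a P value below 0.05 and the log2 difference exceeded 0.32 in either direction. By that rule 5 of 10 members were higher and 0 lower at day 1 (26.2% and 27.9% of all genes), 7 higher and 2 lower at day 2 (33.4% and 32.4%), and 6 higher and 3 lower at day 7 (36.7% and 36.7%). In either direction 5, 9 and 9 members were called, and 6471, 7864 and 8785 of 11959 genes. Most genes thus changed too, and with 10 members the counts are no result about the members as a set. The members' median log2 difference from day 0 was 0.33, 0.73 and 0.84, against 0.0082, 0.022 and 0.0083 over all genes. The 3 comparisons share the day 0 vehicle samples. In bulk RNA, fewer cells of a type and less RNA per cell cannot be told apart.

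Among the coactivators, Ppargc1b stood at 4.75, 5.09 and 5.01 CPM in the day 0 vehicle samples, at 23.5, 22.4 and 21.3 at day 1, and at 49.6, 50.6 and 46.1 at day 2. The day 7 samples held 20.02, 35.3, 35.7 and 29.2 CPM, all above day 0, with the lowest in the replicate that stood apart. The log2 differences from day 0 were 2.18 ± 0.15 (SE, adjusted P = 7.83e-14), 3.30 ± 0.14 (3.06e-19) and 2.61 ± 0.14 (7.87e-17). Ppargc1a went from 27.96, 20.4 and 30.1 CPM at day 0 through 30.8, 24.4 and 26.8 at day 1 to 35.6, 36.1 and 33.6 at day 2. Its day 7 samples, at 5.88, 9.07, 7.30 and 6.96 CPM, lay below every other group of the series. The test gave 0.058 at day 1 (adjusted P = 0.664), 0.42 ± 0.11 at day 2 (0.00117) and −1.84 ± 0.13 at day 7 (1.88e-14). Pprc1, which is serum-responsive in other cells, ranged from 107 to 113 CPM at day 0 and from 77.0 to 83.0 at day 2, a log2 difference of −0.45 ± 0.050 (1.79e-09). Without day 0 vehicle replicate 2 the day 2 difference of Ppargc1a was 0.28 (0.0219) and under the fold threshold. Without day 7 vehicle replicate 1 the day 7 differences were −1.76 for Ppargc1a and 2.76 for Ppargc1b.

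Of the DNA-binding factors, only Esrra was called higher on each of the 3 days, while Nrf1 was called lower at days 2 and 7. Esrra rose 2.18-fold between day 0 (29.04, 27.8 and 30.5 CPM) and day 1 (63.9, 61.1 and 65.2), and reached 93.7, 96.8 and 93.7 at day 2 (log2 difference 1.70 ± 0.059, adjusted P = 7.48e-22). Nrf1 slipped from 35.3 to 37.9 CPM at day 0 to 22.97 to 27.3 at day 7 (−0.54 ± 0.070, 2.55e-08), without overlap, while its day 2 call was lost without day 0 vehicle replicate 1 or day 2 vehicle replicate 3 (−0.32 and −0.28). Gabpa passed the adjusted P value on each day but not the fold threshold, with log2 differences of −0.24, −0.29 and −0.26, and was called at day 2 without day 0 vehicle replicate 2 (−0.33). Its day 7 difference was −0.16 without day 7 vehicle replicate 1, the library that stood apart, and −0.35, and called, without replicate 2. The mitochondrial transcription genes differed in timing. Tfb2m was higher than at day 0 on each later day, going from a mean of 9.66 CPM at day 0 through 14.7 and 19.9 to 32.4 at day 7 (1.74 ± 0.064, 1.93e-21). Polrmt went from 20.7 ± 1.5 CPM at day 0 to 50.7 ± 0.27 at day 2 (1.29 ± 0.055, 1.78e-19) and was at 50.4 ± 2.1 at day 7. Tfb1m, the least abundant member, climbed from 3.38, 3.90 and 3.95 CPM at day 0 to 15.4, 12.45, 14.7 and 12.7 at day 7 (1.89 ± 0.12, 1.07e-15). Tfam was at 28.1 ± 1.4 CPM at day 0, at 25.5 ± 0.93 at day 1 (adjusted P = 0.0813) and at 37.6 ± 2.7 at day 2 (0.42 ± 0.068, 1.96e-06). The same 9 members were called at day 7 without vehicle replicate 1, in the same directions.

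**Figure D1:**
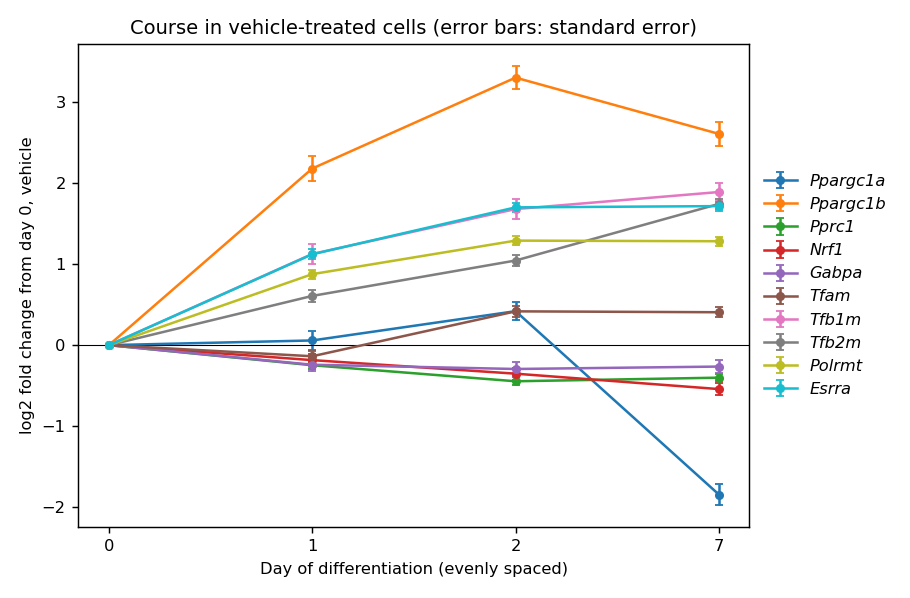
Log2 fold change of each regulator from day 0 in vehicle-treated cells, with the day of differentiation (evenly spaced) on the x axis, lines joining the fitted values and error bars giving the standard error. Ppargc1b lies highest throughout, peaking at 3.30 at day 2, while Ppargc1a drops from 0.42 at day 2 to −1.84 at day 7.

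Levels were also compared between members as CPM per kilobase of exon, since longer transcripts yield more reads. The length joined the exons of all annotated transcripts, 10282 bases for Nrf1 (20 transcripts) and 3990 for Ppargc1b (3). The order of members thus depends on the annotation too. On this scale Gabpa (18.2) and Pprc1 (17.6) led at day 0 in vehicle-treated cells and did not differ beyond their spread. Esrra (6.64) and Tfam (6.34), which overlapped, followed, then Polrmt (4.41), Ppargc1a (3.97), Nrf1 (3.52) and Tfb2m (3.45), each overlapping with the next. Ppargc1b (1.24) and Tfb1m (1.04) were lowest and did not overlap. The day 7 order was Esrra (21.8), Gabpa (15.1), Pprc1 (13.3), Tfb2m (11.6), Polrmt (10.8), Tfam (8.39), Ppargc1b (7.53), Tfb1m (3.83), Nrf1 (2.42) and Ppargc1a (1.11), where Gabpa and Pprc1, Tfb2m and Polrmt, and Tfam and Ppargc1b overlapped. Without vehicle replicate 1, Gabpa (14.7 to 17.7) no longer overlapped with Pprc1 (13.1 to 13.7), nor Tfb2m (11.1 to 11.6) with Polrmt (10.2 to 10.99). Ppargc1a had thus moved from the sixth place to the last. At day 2 Ppargc1b (12.2) stood in the fourth place, ahead of Polrmt (10.8), Tfam (8.47) and Tfb2m (7.11).

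With C70 the PGC-1 family split after exposure had ended, Ppargc1a going up and Ppargc1b down. At day 0, at the end of exposure, no member was a DEG. At day 1 Ppargc1a was higher and Ppargc1b and Tfb1m were lower, at day 2 Ppargc1a and Pprc1 were higher and Ppargc1b was lower, and at day 7 Ppargc1a was higher and Ppargc1b lower. Nrf1, Gabpa and Tfb2m did not pass the test on any day. In counts, 0 members were higher and 0 lower at day 0 (5.89% and 3.09% of all genes), 1 and 2 at day 1 (13.6% and 7.80%), 2 and 1 at day 2 (16.9% and 13.6%), and 1 and 1 at day 7 (14.3% and 4.85%). The edgeR test at an unadjusted P value under 0.05, without a fold threshold, took in 1 member at day 0 and 3687 of 11959 genes. DESeq2 called 0 members on that day. By the adjusted P value alone, 1, 5, 6 and 4 members passed on the 4 days, against 19.8%, 40.7%, 50.7% and 41.1% of all genes. The members' median log2 difference was 0.058, −0.099, −0.13 and −0.068, against −0.00043, −0.0060, −0.0036 and 0.0038 over all genes. With 10 members these counts are near the background shares and are no result about the members as a set.

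**Figure D2:**
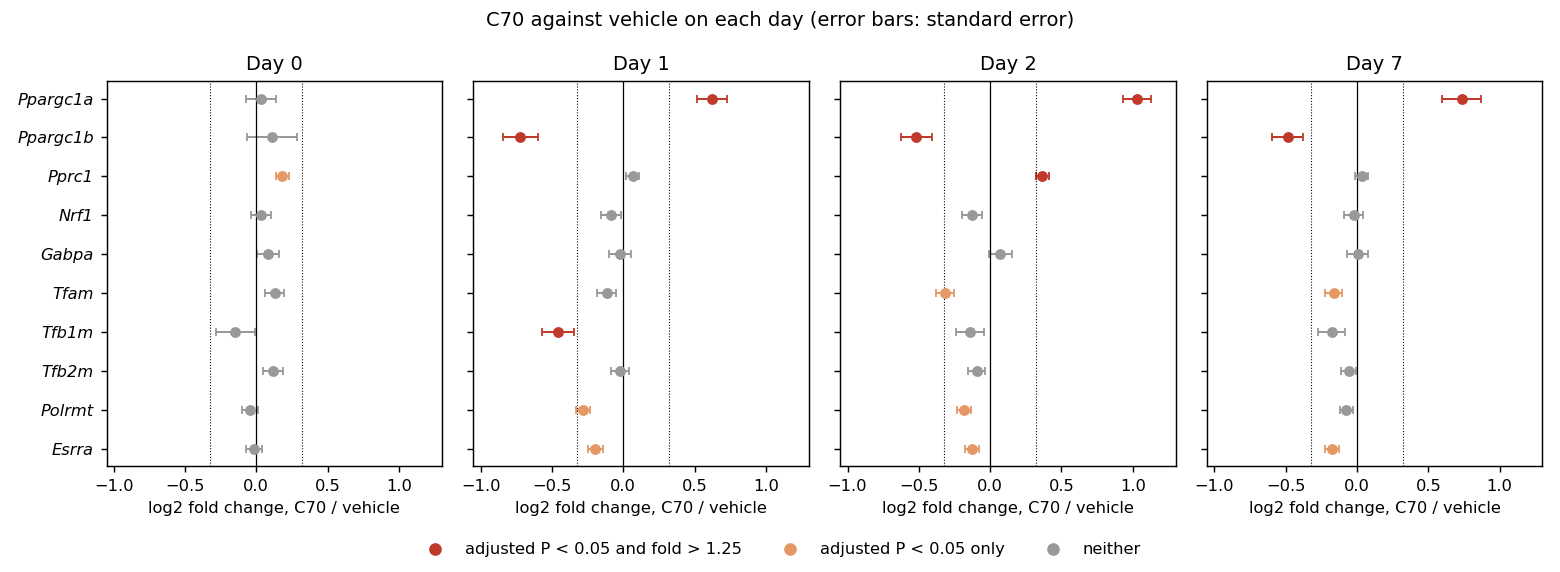
Log2 fold change of C70 over vehicle for the 10 regulators on each day, with standard errors, dotted lines at the fold threshold and colours for the call. Ppargc1a lies right of the upper line at days 1, 2 and 7 (0.62, 1.03 and 0.73) and Ppargc1b left of the lower one (−0.72, −0.52 and −0.49).

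Ppargc1a, the gene of PGC-1α, lies at chr5:51454250-51567726 (GRCm38, minus strand), and its counts do not separate its isoforms. At day 0 the vehicle samples held 27.96, 20.4 and 30.1 CPM and the C70 samples 26.3, 25.3, 25.3 and 30.3. The groups overlapped, and the log2 difference was 0.033 ± 0.11 (SE, edgeR's quasi-likelihood test, adjusted P = 0.884). At day 1 the vehicle samples held 30.8, 24.4 and 26.8 CPM and the C70 samples 39.8, 41.9, 42.3 and 44.0, a log2 difference of 0.62 ± 0.10 (1.82e-05). At day 2 the vehicle samples held 35.6, 36.1 and 33.6 and the C70 samples 79.7, 76.7, 64.4 and 66.2, a 2.04-fold difference (log2 1.03 ± 0.10, 5.36e-10). Every C70 sample was above every vehicle sample on both days. At day 7 the gene had fallen in both arms, yet the C70 samples, at 11.1, 11.2, 13.98 and 12.3 CPM, still lay above the vehicle samples, at 5.88, 9.07, 7.30 and 6.96 (0.73 ± 0.13, 5.71e-05). Without the day 7 vehicle replicate that stood apart, the log2 difference was 0.65 (adjusted P = 0.000319).

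Ppargc1b, the gene of PGC-1β, lies at chr18:61298136-61400431 (minus strand) and hosts the microRNA gene Mir378a in an intron. At day 0 its vehicle samples held 4.75, 5.09 and 5.01 CPM and its C70 samples 5.17, 6.01, 5.06 and 5.13. The samples overlapped, with a log2 difference of 0.11 ± 0.18 (adjusted P = 0.739). At day 1 the vehicle samples had risen to 23.5, 22.4 and 21.3 CPM and the C70 samples only to 12.6, 14.9, 13.7 and 13.2, a log2 difference of −0.72 ± 0.12 (2.11e-05). At day 2 they held 49.6, 50.6 and 46.1 against 33.5, 35.6, 34.1 and 33.2 (−0.52 ± 0.11, 0.000151). On both days every C70 sample lay below every vehicle sample, the reverse of Ppargc1a. The day 7 vehicle samples held 20.02, 35.3, 35.7 and 29.2 CPM and the C70 samples 20.3, 18.2, 24.5 and 23.1 (−0.49 ± 0.11, 0.000609). These groups overlapped through vehicle replicate 1 alone, and without it the log2 difference was −0.63 (2.14e-08).

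Pprc1 lies at chr19:46044886-46072915 (plus strand). Its vehicle samples at day 0 held 107, 113 and 111 CPM and its C70 samples 125, 134, 120.3 and 122, which did not overlap. The difference was a log2 value of 0.18 ± 0.046 that passed the adjusted P value (0.00482) but not the fold threshold, and Pprc1 was the single member to do so at day 0. At day 1 the samples overlapped (log2 difference 0.066, adjusted P = 0.271). At day 2 the vehicle samples held 83.0, 82.9 and 77.0 CPM and the C70 samples 106, 105, 100.3 and 107, a log2 difference of 0.37 ± 0.047 (1.11e-07). At day 7 the vehicle samples (80.4 to 86.4) and the C70 samples (81.7 to 92.0) overlapped again (0.032, 0.590, and 0.020 without vehicle replicate 1).

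**Figure D3:**
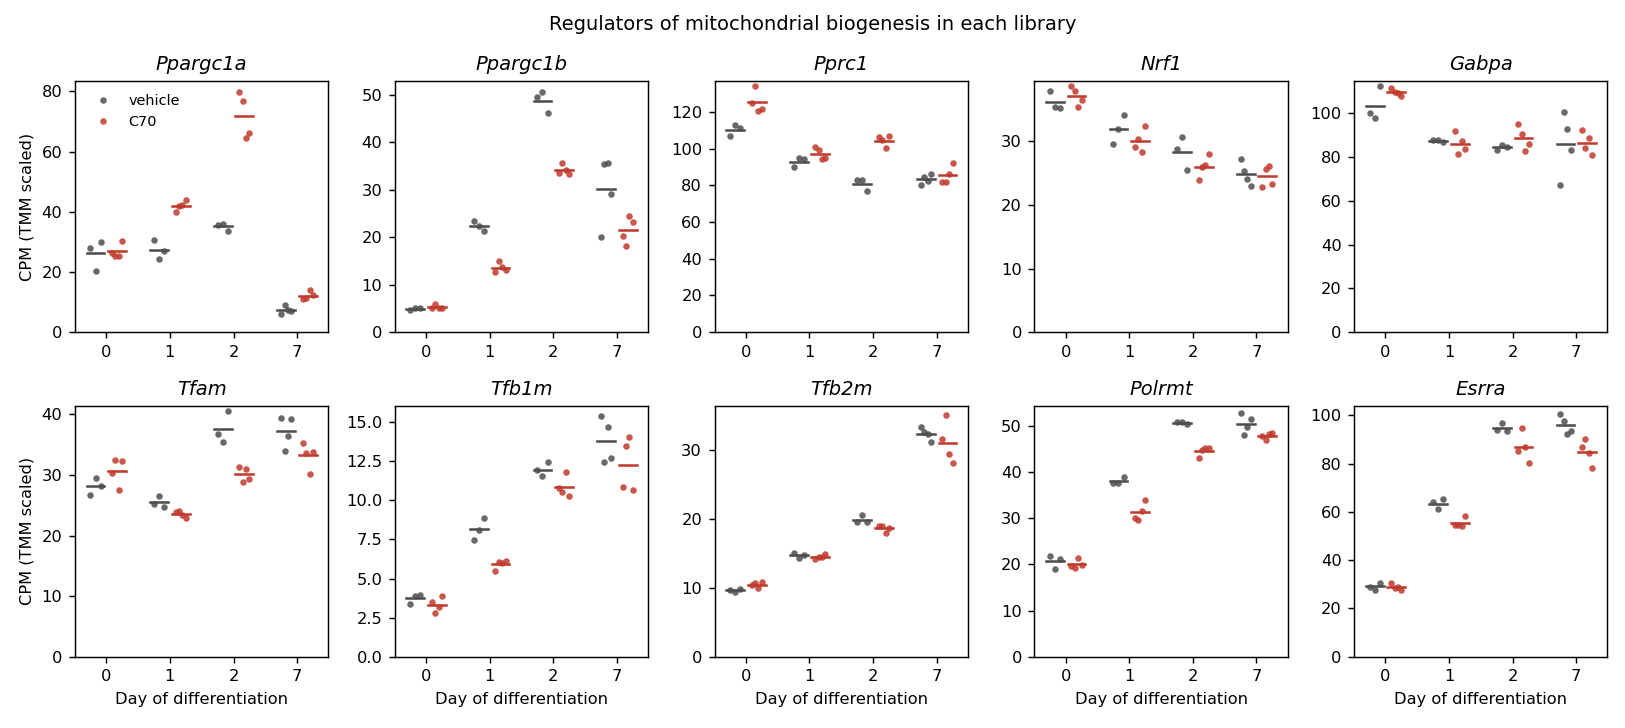
CPM of each regulator in every library, by day of differentiation, with vehicle in grey, C70 in red and a bar at each group's mean. Ppargc1a is higher with C70 in every library at days 1, 2 and 7, and the low day 7 vehicle point of Ppargc1b, at 20.02 CPM, is replicate 1.

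The DNA-binding partners of the coactivators moved little with C70. Esrra (chr19:6910977-6921813, minus strand) passed the adjusted P value on 3 days, each time under the fold threshold. Its vehicle samples at day 1 held 63.9, 61.1 and 65.2 CPM against 54.8, 54.5, 54.0 and 58.1 with C70, a log2 difference of −0.20 ± 0.053 (adjusted P = 0.00369). At day 2 the difference was −0.13 ± 0.051 (0.0388), with C70 replicate 2 at 94.8 CPM inside the vehicle range of 93.7 to 96.8. At day 7 the vehicle samples held 100.3, 97.5, 92.1 and 93.3 and the C70 samples 86.7, 90.0, 84.4 and 78.1 (−0.18 ± 0.048, 0.00379), and without vehicle replicate 1 it was −0.15 (0.0125). Nrf1 (chr6:30047988-30153458, plus strand) had overlapping groups on every day and log2 differences of 0.032, −0.084, −0.13 and −0.024, with adjusted P values of 0.143 to 0.808. Gabpa (chr16:84834925-84863779, plus strand) also overlapped on every day, with differences of 0.082, −0.024, 0.071 and 0.0046. Its day 7 vehicle samples spread widely, from 67.4 CPM in replicate 1 to 100.7 in replicate 2. Without replicate 1 the day 7 differences were 0.026 for Nrf1 and −0.090 for Gabpa, neither called. The GABPβ subunits, encoded by Gabpb1 and Gabpb2, were not DEGs on any day.

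Of the 4 mitochondrial transcription genes, 1 was called with C70, on 1 day. Tfb1m (chr17:3519256-3557781, minus strand) held 7.44, 8.08 and 8.90 CPM in the day 1 vehicle samples and 5.50, 6.05, 5.98 and 6.13 with C70, without overlap (log2 difference −0.46 ± 0.11, adjusted P = 0.00146). On the other days its groups overlapped, with −0.15, −0.14 and −0.18 (adjusted P = 0.525, 0.243 and 0.120). Polrmt (chr10:79736123-79746581, minus strand) held 37.6, 37.6 and 38.9 CPM in day 1 vehicle samples and 30.1, 29.6, 31.6 and 33.9 with C70 (−0.28 ± 0.051, 4.37e-05), and 50.7, 50.9 and 50.4 against 43.1, 44.8, 45.2 and 45.2 at day 2 (−0.19 ± 0.049, 0.00201). Neither day reached the fold threshold, although no sample overlapped. Without day 1 C70 replicate 4 the day 1 difference was −0.32 and passed. The day 7 differences without vehicle replicate 1 were −0.12 for Tfb1m and −0.050 for Polrmt, against −0.18 and −0.076 with it, none of them called.

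Tfam (chr10:71225464-71238280, minus strand) came closest to the fold threshold without passing it. At day 2 the vehicle samples held 36.7, 35.4 and 40.6 CPM and the C70 samples 31.3, 28.9, 31.0 and 29.3, a log2 difference of −0.32 ± 0.064 (adjusted P = 0.000109) and a ratio of 0.803. Under DESeq2 size factors, the DESeq2 test and limma the same gene was called (−0.33, −0.33 and −0.32), as it was when vehicle replicate 1 or 2, or C70 replicate 1 or 3, of that day was left out. Its day 7 difference was −0.16 ± 0.060 (0.0296), and without vehicle replicate 1 it no longer passed (−0.13, 0.0908). Tfb2m (chr1:179528055-179546267, minus strand) had differences of 0.11, −0.021, −0.095 and −0.060, with adjusted P values of 0.198 to 0.832. At day 7 its vehicle samples held 31.2 to 33.4 CPM and its C70 samples 28.2 to 35.2, and without vehicle replicate 1 the difference was −0.040.

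Several members share exon sequence with a gene on the opposite strand, and whether the counting used strand is not given in the sources used here. Gabpa overlaps Atp5j by 397 bases, Pprc1 overlaps Ldb1 by 177, Tfb1m overlaps Tiam2 by 142 and Esrra overlaps Trmt112 by 73. The C70 log2 differences at days 0, 1, 2 and 7 were −0.12, 0.14, 0.40 and 0.22 for Ldb1 and 0.15, 0.22, 0.33 and 0.78 for Tiam2. They were −0.049, −0.16, −0.24 and −0.32 for Atp5j and 0.045, −0.011, 0.010 and −0.15 for Trmt112. Without day 7 vehicle replicate 1 the day 7 values were 0.29 for Ldb1, 0.71 for Tiam2, −0.18 for Atp5j and −0.052 for Trmt112. Ldb1 was thus highest at day 2, as Pprc1 was, and its part in the Pprc1 value was not tested, while at day 1 Tiam2 lay above vehicle and Tfb1m below.

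Whether the effect of C70 differed between days was tested as an interaction in the same fit. Between day 0 and day 1 the effect on Ppargc1a grew by 0.59 ± 0.15 on the log2 scale (adjusted P = 0.00508) and that on Ppargc1b became more negative by 0.83 (−0.83 ± 0.21, 0.00553). These were the 2 members called, of 13.9% of all genes, and Polrmt passed the adjusted P value under the fold threshold (−0.24 ± 0.075, 0.0238). Between day 1 and day 2 the effect on Ppargc1a grew by another 0.41 ± 0.14 (0.0423), against 13.8% of all genes called, and that on Pprc1 by 0.30 ± 0.066 (0.00132), under the fold threshold. The Ppargc1a step passed narrowly, and it no longer passed (adjusted P = 0.0574 to 0.160) when any of 10 libraries was left out: at day 1 vehicle replicates 1 and 3 and C70 replicates 1 to 3, at day 2 vehicle replicates 1 to 3 and C70 replicates 1 and 2. Between day 2 and day 7 the effect on Pprc1 shrank (−0.33 ± 0.064, 0.000166), with 20.9% of all genes called. That call rests on a value next to the fold threshold and was lost when vehicle replicate 3 of day 2 (−0.30), vehicle replicate 4 of day 7 (−0.32) or the first or second C70 replicate of day 7 (−0.31 and −0.32) was left out. The step of Ppargc1a there was −0.30 ± 0.17 (0.193) and that of Ppargc1b 0.031 (0.905), and without day 7 vehicle replicate 1 these were −0.39 (0.0727) and −0.12 (0.377).

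The opposite movements were followed within each library as the ratio of Ppargc1a to Ppargc1b in CPM per kilobase, given without a test because the pair was already known to diverge. At day 0 it was 2.43 to 3.63 in vehicle samples and 2.55 to 3.58 in C70 samples. At day 1 it had dropped to 0.660 to 0.792 in vehicle samples but to 1.70 to 2.02 with C70, and at day 2 to 0.431 to 0.441 and 1.14 to 1.44. On this scale Ppargc1b exceeded Ppargc1a in all 6 vehicle libraries of days 1 and 2 and in none of the 8 C70 libraries. At day 1 this depends on dividing by exon length, with isoforms not separated, since in CPM the vehicle libraries held 30.8, 24.4 and 26.8 of Ppargc1a and 23.5, 22.4 and 21.3 of Ppargc1b. At day 2 it held in CPM too, with 35.6, 36.1 and 33.6 of Ppargc1a and 49.6, 50.6 and 46.1 of Ppargc1b in vehicle libraries, and 64.4 to 79.7 against 33.2 to 35.6 with C70. By day 7 the ratio was below 1 in both arms, 0.124 to 0.178 with vehicle and 0.323 to 0.373 with C70.

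**Figure D4:**
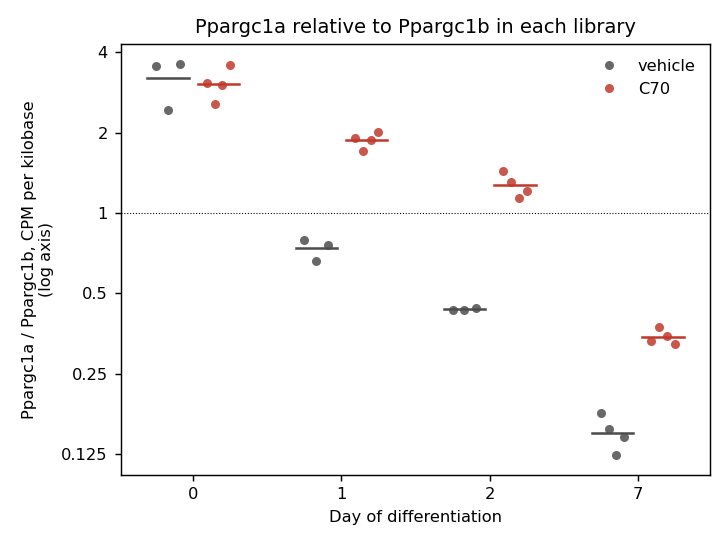
Ratio of Ppargc1a to Ppargc1b in each library, in CPM per kilobase of exon on a log axis, by day, with bars at the group means and a dotted line at equal levels. The vehicle libraries cross the line between day 0 and day 1, and the C70 libraries between day 2 (1.14 to 1.44) and day 7 (0.323 to 0.373).

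Over the 8 groups, mean Ppargc1a ran from day 2 C70 (71.7 CPM) through day 1 C70 (42.0), day 2 vehicle (35.1), day 1 vehicle (27.3), day 0 C70 (26.8), day 0 vehicle (26.2) and day 7 C70 (12.2) to day 7 vehicle (7.30). Neighbours in this order overlapped only among day 1 vehicle, day 0 C70 and day 0 vehicle. Ppargc1b ran from day 2 vehicle (48.8 CPM) through day 2 C70 (34.1), day 7 vehicle (30.1), day 1 vehicle (22.4), day 7 C70 (21.5), day 1 C70 (13.6) and day 0 C70 (5.34) to day 0 vehicle (4.95). The 4 groups from day 2 C70 to day 7 C70 overlapped with their neighbours, as did the day 0 pair. Without day 7 vehicle replicate 1, the day 7 vehicle samples (29.2 to 35.7) no longer overlapped with those of day 1 (21.3 to 23.5). The range of the group means on the log2 scale was 3.29 for Ppargc1a, 3.27 for Ppargc1b and 2.02 for Tfb1m, and smallest for Gabpa (0.376).

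The genes most like these 3 over the 8 group means were sought across the table, as a description. Ppargc1a was matched by Zfp280c, Ccnt2 and Gm49747 (Pearson r = 0.978, 0.974 and 0.970), and 121 genes (1.01%) had r above 0.9. Ppargc1b was matched by the pseudogene Eif4a-ps4 and by Necap1 and Ahsa1 (0.996, 0.995 and 0.994), with 886 genes (7.41%) above 0.9, and Tfb1m by Gm10250, Rgcc and Oxnad1 (0.997, 0.996 and 0.996), with 1544 genes (12.9%). The profile of Ppargc1a was thus shared by fewer genes, and with 8 points that share libraries no P value applies.

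The wider pathway was read from lists of genes that were written with earlier results of these data known. With C70, the classical targets of NRF1 and GABP that were called after day 0 were all lower. Among 21 such genes, most of them respiratory chain subunits and import or chaperone genes, 1 was higher at day 0 (Timm8a1, log2 0.56, a call lost when vehicle replicate 1 or 3 or C70 replicate 2 or 4 was left out, with limma and with a filter on low means), and 4, 6 and 11 were lower and none higher at days 1, 2 and 7, where 7.80%, 13.6% and 4.85% of all genes were lower. Of all genes 5.89% were higher at day 0. The filter leaves the genes with the lowest means out of the fit, so a call lost with it can be a gene left untested. At day 1, 4 of the 21 lay above vehicle, and 2 did at day 2, without being called. The median log2 difference of the list was 0.047, −0.17, −0.28 and −0.33. Cycs, which encodes cytochrome c and has many processed pseudogenes that can share its reads, fell from 86.4 ± 5.9 CPM to 53.8 ± 2.9 at day 1, from 287 ± 11 to 188 ± 9.8 at day 2 and from 253 ± 29 to 163 ± 10 at day 7 (log2 −0.69, −0.61 and −0.63). The mitochondrial chaperonin Hspd1 fell at days 1 and 2 (−0.55 and −0.45), the ATP synthase subunit gene Atp5b at day 2 (−0.38) and Alas1, the first enzyme of haem synthesis, at day 7 (−0.44). Without day 7 vehicle replicate 1 the day 7 count was 5 in place of 11 and the median −0.22, with Cycs (−0.54) and Alas1 (−0.44) still called. In vehicle-treated cells 18, 21 and 20 of the 21 were higher than at day 0 on days 1, 2 and 7, where 26.2%, 33.4% and 36.7% of all genes were.

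Targets of ERRα and the PGC-1 coactivators did not move one way. Of 15 in the table, 3 were higher and 1 lower with C70 at day 1, 2 higher and 7 lower at day 2, and 1 and 1 at day 7. On the same days 13.6%, 16.9% and 14.3% of all genes were higher and 7.80%, 13.6% and 4.85% lower, so that most of these counts are near or below the background and the 7 lower genes at day 2 are above it. Pdk4, the kinase that shuts off pyruvate dehydrogenase, rose from 162 ± 11 to 301 ± 21 CPM at day 1 and from 91.8 ± 5.0 to 230 ± 14 at day 2 (log2 0.89 and 1.32). Cpt1a, the gate to mitochondrial fatty acid oxidation, was also higher at days 1, 2 and 7 (0.59, 1.11 and 0.56), although in vehicle-treated cells it declined from 205 ± 7.5 CPM at day 0 to 33.1 ± 1.8 at day 7. The third gene higher at day 1 was Ech1 (0.38). Citric acid cycle genes went the other way, with Idh3a lower at days 1, 2 and 7 (−0.86, −0.58 and −0.36) and citrate synthase, Cs, lower at day 2 (−0.48). At day 7 without vehicle replicate 1, Cpt1a was at 0.53 and Idh3a at −0.32, both called.

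Of 20 genes of mitochondrial transcription and RNA processing, 3, 4 and 1 were lower with C70 at days 1, 2 and 7, where 7.80%, 13.6% and 4.85% of all genes were, and none was higher with all libraries in the fit. A single gene was called higher when vehicle replicate 2 of day 1, vehicle replicate 1 of day 2 or vehicle replicate 1 of day 7 was left out, the last being Mterf4 (0.35). Mrpl12, a ribosomal protein that also binds the mitochondrial polymerase, fell from 65.2 ± 3.4 to 46.6 ± 3.6 CPM at day 1 and from 169 ± 6.3 to 119 ± 7.1 at day 2 (log2 −0.48 and −0.51). The elongation factor gene Tefm was lower at day 2 (−0.52), Mrps7 at days 1 and 2 (−0.43 and −0.39) and Mto1, a tRNA-modifying enzyme, on the same days (−0.43 and −0.33). Mrpl12 was the gene lower at day 7 (−0.34), a call that was lost without vehicle replicate 1 (−0.21) or C70 replicate 3, while without C70 replicate 2 the list had 2 genes lower. With limma or the filter on low means the day 7 count was 0, and with that filter the day 2 count was 2 in place of 4. Among 14 genes of mitochondrial DNA replication, Slc25a33, a carrier of pyrimidine nucleotides, fell at days 1, 2 and 7 (−0.52, −0.78 and −0.65). Rnaseh1 was lower at day 1 (−0.33), Mgme1, an exonuclease, at day 2 (−0.35), and Polg2, the accessory subunit of the DNA polymerase, higher at day 7 (0.34). The 2 lower genes at day 1 and at day 2 stand against 7.80% and 13.6% of all genes, and these counts became 1 when the first vehicle or first C70 replicate of day 1, or vehicle replicate 3 or C70 replicate 1 or 2 of day 2, was left out. At day 7, 4.85% of all genes were lower and 14.3% higher. The day 7 count of 1 lower gene became 2 without vehicle replicate 2 or C70 replicate 4. The Polg2 call was lost when vehicle replicates 2 or 3 or C70 replicate 4 of day 7 were left out, and also with limma. Limma gave 2 lower genes at day 7 in place of 1. The filter on low means does not test the genes it leaves out. With it Polg2 was not called, and 1 gene was lower at day 1 in place of 2. Without vehicle replicate 1 the values of Slc25a33 and Polg2 were −0.60 and 0.38.

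Transcripts of the mitochondrial genome itself were higher with C70 at day 7 and not before. Of its 13 protein genes 7 were in the table, and none was called with C70 at days 0 and 1. EdgeR's unadjusted P value was under 0.05 for 1 on each day, and for 3687 and 5759 of 11959 genes. At day 2 mt-Nd6, the single protein gene on the opposite strand, was lower (log2 −0.47), where 13.6% of all genes were. At day 7 mt-Cytb (0.55), mt-Nd5 (0.57), mt-Nd2 (0.53), mt-Nd1 (0.40) and mt-Nd6 (0.47) were higher, 5 of 7 where 14.3% of all genes were, and the 7 genes summed to 52270 to 56313 CPM in vehicle samples and 66909 to 79788 in C70 samples. Without vehicle replicate 1 these values were 0.60, 0.56, 0.47, 0.42 and 0.43. The count of 5 was the same without any single library and under 3 of 4 other tools or filters, but was 1 under limma with quantile normalization. Nuclear copies of mitochondrial DNA can share such reads.

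**Figure D5:**
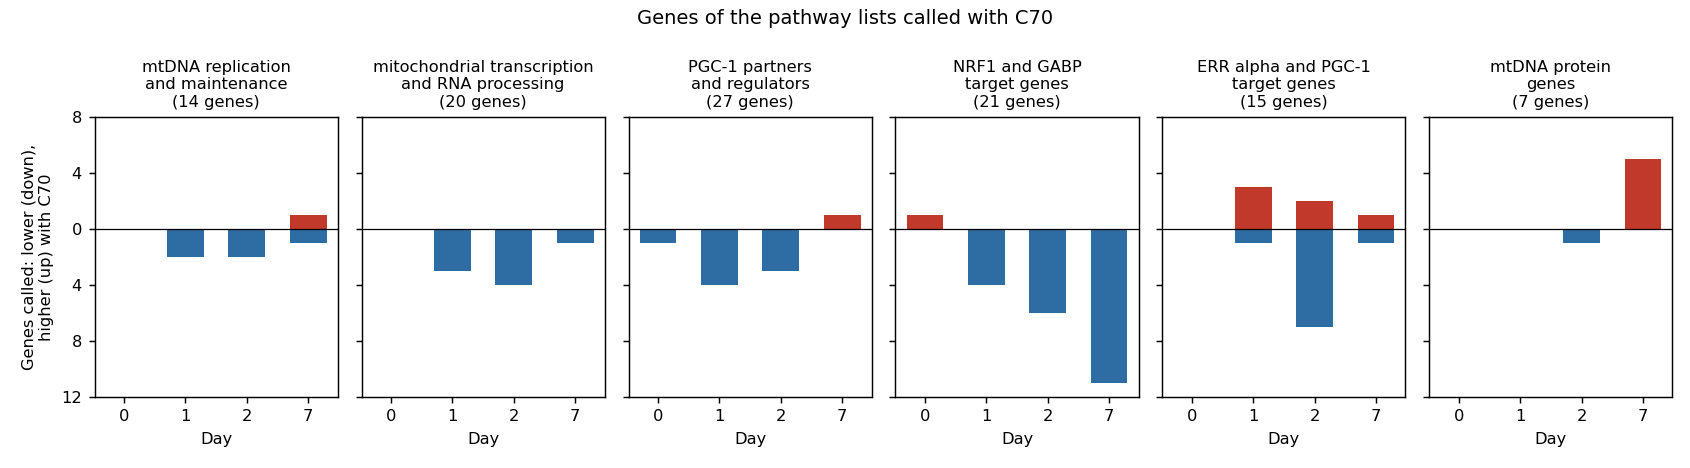
Number of genes of each pathway list called lower (blue, downward) or higher (red, upward) with C70 on each day, with the number of list genes in the table above each panel. NRF1 and GABP targets go from 1 higher at day 0 to 11 lower at day 7, and the mitochondrial genome's protein genes from none to 5 higher.

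Of 27 PGC-1 partners and regulators in the table (Ppara, Esrrb, Esrrg and Perm1 were not analysed here), none was higher at days 0, 1 and 2 with all libraries in the fit, where 5.89%, 13.6% and 16.9% of all genes were, and 1 was when vehicle replicate 2 of day 0 or of day 1 was left out. Lower were 1, 4 and 3 of the 27, against 3.09%, 7.80% and 13.6% of all genes. Pparg, the master regulator of fat cell differentiation and a docking partner of PGC-1, was lower from the start, with 37.7 ± 2.2 against 53.4 ± 2.6 CPM at day 0, 52.9 ± 1.2 against 80.0 ± 2.9 at day 1 and 112 ± 6.8 against 167 ± 2.8 at day 2 (log2 −0.50, −0.60 and −0.57). Lpin1, a coactivator and phosphatidate phosphatase, fell at days 1 and 2 (−0.51 and −0.58), the coactivator gene Ncoa1 on the same days (−0.35 and −0.44) and Myc at day 1 (−0.43). At day 7 the corepressor gene Nrip1 was the single call, and it was higher (0.38), where 14.3% of all genes were. Without vehicle replicate 1 it was 0.24 and not called, and without vehicle replicate 2 the list had 2 genes higher.

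Markers of cell state differed with C70 on all 4 days, including day 0, when no member was called. Of all genes, 5.89%, 13.6%, 16.9% and 14.3% were higher and 3.09%, 7.80%, 13.6% and 4.85% lower on the 4 days. Of 11 adipocyte markers, 1 was higher and 2 lower at day 0, 8 lower at day 1 (6 to 8 when single libraries were left out), 9 lower at day 2, and 2 higher at day 7, the last near the background. Their summed level was 5382 to 5651 CPM with vehicle and 3411 to 3543 with C70 at day 1, 21431 to 22294 and 12740 to 13997 at day 2, and 26225 to 30980 and 28699 to 31573 at day 7. Adipoq changed by −1.22, −0.90 and 0.35 on the log2 scale at days 1, 2 and 7, and Fabp4, a lipid-binding protein gene, by −0.90 and −0.98 at days 1 and 2. Of 8 preadipocyte and fibroblast markers, 2, 4, 7 and 8 were higher on the 4 days, Dlk1 among them at days 1, 2 and 7 (0.39, 0.97 and 0.82), and 1 was lower at day 1 (Col1a1, −0.35). Their sum was 4131 to 4201 CPM with vehicle and 6758 to 7165 with C70 at day 2, and 2843 to 3725 and 5633 to 6412 at day 7. The part of these shifts in the C70 values of the members and of the pathway lists, NRF1 and GABP targets included, was not tested. The day 7 count of 2 higher adipocyte markers ranged from 0 to 3 when single libraries were left out, being 0 without vehicle replicate 4 and 1 when vehicle replicate 3, C70 replicate 1 or C70 replicate 3 was left out, and 1 with limma. Without vehicle replicate 1, Adipoq was at 0.46 and Dlk1 at 0.94.

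None of 6 brown adipocyte markers, among them Ucp1 and Cidea, and none of 6 endothelial markers was in the table. All 11959 genes in the table had a CPM over 1 in at least 20 samples. A gene expressed in fewer samples may have been filtered out, so absence does not show lack of expression. Of 7 macrophage markers 2 were (Cd68 and Cd14), with sums of 7.81 to 8.91 CPM with vehicle and 25.7 to 26.8 with C70 at day 0 and of 4.39 to 6.34 and 4.02 to 5.90 at day 7, while the defining Adgre1, Ptprc and Csf1r were not in it. Cd68, a lysosomal protein gene, was higher with C70 at days 0, 1 and 2 (log2 3.85, 2.90 and 2.06) and Cd14 at days 1 and 2 (0.67 and 0.49). Of 6 muscle markers Des alone was present, and it was higher at days 0, 1 and 2 (0.86, 1.51 and 0.47). Limma did not call Des at day 2 and called 1 of the 2 macrophage markers there. With the filter on low means none of the 3 genes was called, but genes that it leaves out are not tested. The part of these markers in the members' values was not tested.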

How the data were processed

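RNA was sequenced from 29 samples of 3T3-L1 cells. The labels name a strand-specific mRNA kit, whereas the study's text speaks of total RNA, and that text also names another edgeR version than the notes. Per the submitters' processing notes the authors used STAR 2.7.2a, the GRCm38 genome and edgeR 3.26.8, while the counter, its strand setting and the low-value filter are not given in the sources used here. The deposited file is named as normalized but holds whole-number counts per gene with unequal library totals, which were used as counts. All 29 samples were fitted with edgeR 4.0.16 in R 4.3.3 (8 group means, TMM factors 0.898 to 1.08, common biological coefficient of variation 0.0594), with Benjamini-Hochberg adjustment over 11959 genes in each of 10 contrasts. On simulated counts for day 2, 99% of 200 genes changed 2-fold were recovered, with 8 other calls. No other difference between groups was simulated, so smaller differences, such as those of most members, were not covered. CPM values use TMM-scaled library sizes, and exon lengths, symbols (11953 of 11959 IDs) and positions come from the GRCm38 annotation. Values of C70 and vehicle groups rest on 3 or 4 samples. Every member is named. From each list up to 4 genes with the smallest adjusted P among those called with C70 are named. The preadipocyte and fibroblast list is an exception, since Dlk1 is named without being among those 4, and Ly6a, Thy1 and Col3a1 are not named. Calls of short counts (Ech1, Nrip1, mt-Nd6, Timm8a1, Col1a1) were chosen after their values were seen. The members and lists were chosen with earlier results of these data known. Alternatives were DESeq2 1.42.0 and its size factors, limma 3.58.1 on quantile-normalized values, and a filter on low means. Further ones were other thresholds, a replicate block, separate fits per day, and leaving out each library. The filter leaves the genes with the lowest means out of the fit, so they are not tested. List counts under these alternatives, and list genes and day 7 contrasts without day 7 vehicle replicate 1, were added after seeing the data.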

Additional observations from a re-analysis of the deposited data

Results flagged for a closer look

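In day 0 C70 cells, replicate 2 held 6.01 CPM of Ppargc1b and lay far from the other 3 samples of its group, which were at 5.06 to 5.17 CPM. It was the 1 such sample in 50 groups of 4, where chance alone gives about 1 in 20. The effect of C70 differed between neighbouring days for 4 of the 10 members by a test of the difference itself (edgeR's adjusted P value, without a fold threshold). From day 0 to day 1 the log2 effect changed by 0.59 for Ppargc1a, by −0.83 for Ppargc1b and by −0.24 for Polrmt. From day 1 to day 2 it changed by 0.41 for Ppargc1a and by 0.30 for Pprc1, and from day 2 to day 7 by −0.33 for Pprc1. By the same rule 2379, 2373 and 3628 of 11959 genes passed at these steps, against 3, 2 and 1 of the 10 members. These counts are no result about the members as a set. Neighbouring steps share the samples of the day between them.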

How the results depend on the processing

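Over all alternatives, 3573 of the members' log2 values kept their direction and their side of the threshold, 35 lost and 32 gained a call, and 30 reversed, all of them uncalled values. By the adjusted P value alone, without the fold threshold, 1, 5, 6 and 4 members passed with C70 at days 0, 1, 2 and 7, 8 in vehicle cells at day 1 and 2 for the day 1 to day 2 step. Of all 11959 genes 2366, 4865, 6064, 4919, 8385 and 2373 passed in the same order. With a fold change over 1.5, 1 member passed at day 2, 1 at day 7, 5 in vehicle cells at day 2, and 0 at the steps from day 1 to 2 and from day 2 to 7. Of all genes 1740, 1052, 5647, 638 and 1134 did, in that order. For the day 2 to day 7 step, DESeq2 size factors, the DESeq2 test and the filter on low means each gave 0 (Pprc1 at −0.32) and limma gave 2. Of all genes in each fit 2541, 2576, 1890 and 2462 were called, in that order. For the day 1 to day 2 step limma gave 0, and 1596 of all genes. In vehicle cells Gabpa was called lower at day 2 with limma (−0.36) and with the filter on low means (−0.34). With limma it was also called at day 7 (−0.37). Tfb1m could not be fitted with the filter on low means, since it is among the genes left out.

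The replicate numbers did not pair the samples: over 13 same-number pairs the deviations from group means correlated by −0.20 to 0.21, and 2 exceeded 0.1. With the replicate block the day 1 to day 2 step gave 0 members (Ppargc1a 0.41, adjusted P = 0.0577) and 1641 of all genes. Tfam was called at day 2 (−0.32) with it, and Esrra at day 0 was 0.0016. Ppargc1a at day 0 was −0.031 in separate fits per day with the block. Nrf1 at day 7 was 0.0012 with the filter on low means, and Gabpa at day 7 was −0.0049 in the separate fits without a block. The causes were not tested.

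Leaving out 1 library at a time, counts of members called ranged from 3 to 4 at days 1 and 2, from 8 to 9 and 9 to 10 in vehicle cells at days 2 and 7, and from 0 to 1 for the steps from day 1 to 2 and from day 2 to 7, and did not change elsewhere. Values that changed sign ranged, with C70 at day 0, from −0.11 to 0.14 for Ppargc1a, −0.097 to 0.00051 for Polrmt and −0.047 to 0.019 for Esrra. At day 1 Gabpa ranged from −0.052 to 0.0013. At day 7 the ranges were −0.0060 to 0.056 for Pprc1, −0.061 to 0.026 for Nrf1 and −0.090 to 0.087 for Gabpa, and in vehicle cells at day 1 −0.085 to 0.17 for Ppargc1a. For the day 1 to day 2 step Nrf1 ranged from −0.11 to 0.021. For the day 2 to day 7 step Ppargc1b ranged from −0.12 to 0.13, Gabpa from −0.17 to 0.016, Tfb1m from −0.11 to 0.025 and Tfb2m from −0.035 to 0.080. Tfb1m had the lowest counts of the members, with 54 to 300 reads a sample.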
